A study of Drosophila melanogaster with 2 samples.

Results

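The genes described here are 10 members of the epidermal growth factor receptor (EGFR) pathway of Drosophila melanogaster: the receptor gene Egfr, the ligand genes spi, vn and Krn, the ligand-processing genes rho and S, the transcriptional effector gene pnt and the inhibitor genes aos, sty and kek1. They were chosen by name, as a signalling input to the distal leg programme in which aristaless (al) acts, out of 13968 protein-coding genes on the 7 chromosome arms. The question was which of them carried sites bound by the Aristaless protein, a paired-class homeodomain transcription factor, and whether those sites lay at the gene's own starts, in its introns or at the promoters of neighbours. Binding was mapped by ChIP-seq (sequencing of chromatin-immunoprecipitated DNA) in whole embryos aged 0 to 24 h of a transgenic strain, named al-GFP in the labels, that carried al fused to eGFP. Anti-GFP antibody recovered the fusion protein with its DNA from chromatin sheared by sonication to 200 to 800 bp. The data were 1 group of 2 biological replicates with no contrast between conditions. Whole embryos of mixed stages hold all cell types, and the labels do not say which cells made the fusion protein. The libraries that the labels name as possible controls were not analysed here.

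The EGFR pathway works through ligands that are made as membrane-bound precursors or as secreted proteins, a receptor tyrosine kinase that passes the signal through Ras and the MAP kinase cascade, and transcription factors that read the signal out in the nucleus. Several of its target genes encode inhibitors of the pathway itself, so that the signal limits its own range. In the leg, EGFR signalling from the tip of the imaginal disc is known to be needed for al expression there. The embryo uses the same pathway in the ventral ectoderm, the tracheal system and the head.

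Aristaless peaks stood at 7 of the 10 genes: all 3 ligand genes, S, pnt, aos and sty. Egfr, rho and kek1 carried none. A gene was counted when the summit of a peak in the series' thresholded list lay inside it or at most 5 kb outside. By that rule 70.0% of the members carried a peak, against 46.2% of all protein-coding genes. Coverage was more frequent among long genes in general, and among members of at least 10 kb 5 of 6 carried one (83.3%), against 60.7% of all genes of that length. Of the shorter members, spi and Krn carried peaks and rho and kek1 did not (2 of 4), against 43.8% of all genes under 10 kb. Counting summits inside the gene only, the same 7 members carried one (70.0%), against 10.6% of all genes; among those of at least 10 kb it was 5 of 6 (83.3%), against 37.6%. These shares describe a short list chosen by name with earlier results of these data known, and were not tested.

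The 7 genes shared 22 peaks, and most of these were intronic. In all, 14 peaks lay in an intron of the member, 5 lay within 500 bp of one of the member's own transcription starts (own-TSS peaks) and 3 lay in flanking sequence. No peak lay in an exon, and none fell in the remaining class of peaks within 500 bp of another coding gene's start only. An own-TSS peak was found at spi, Krn, S and aos, or 40.0% of the members, against 18.7% of all protein-coding genes. However, 3 of those 5 peaks, at spi, Krn and S, also lay within 500 bp of a neighbour's start and cannot be assigned to the member alone. Of all 3822 summits on the arms, 51.2% lay within 500 bp of some coding gene's start. That share was 41.5% among summits in or near genes of at least 10 kb, and 22.7% (5 of 22) among the member peaks. Krn, S and pnt had at least 4 summits each, or 30.0% of the members, against 2.31% of all genes. Among genes of at least 10 kb, S and pnt had that many (33.3% of 6), against 9.22% of all genes of that length. Which genes reached 4 summits depended on the list: spi, S, sty and pnt did in the conservative list (40.0%, against 2.13% of all genes), Krn and pnt in that of replicate 1 (20.0%, against 1.25%) and pnt alone in that of replicate 2 (1 of 10, against 0.515%). In the conservative list spi reached 4 only with an entry of signal 21.1 that overlaps a stronger spi peak.

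**Figure D1:**
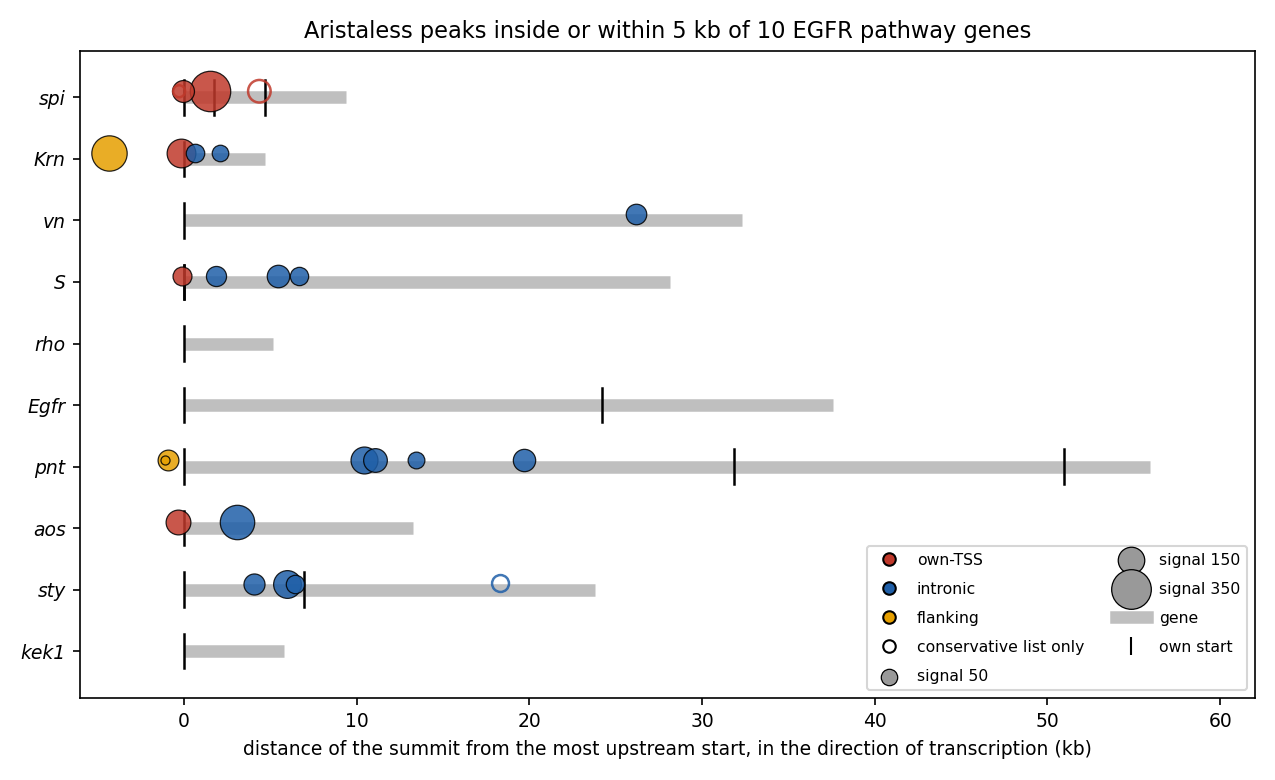
Position of each Aristaless peak along the 10 genes, drawn in the direction of transcription with the most upstream annotated start at 0 kb. Circles mark summits, with area growing with the deposited signal and colour giving the class, open circles mark peaks of the conservative list only, grey bars are the genes and black ticks their starts. The rows of rho, Egfr and kek1 hold no circle, and the rows of vn, S, pnt, aos and sty are led by intronic peaks.

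The sequences below show the site of highest signal at 3 of the genes and 2 further intronic sites, one at pnt that shares a run of letters with the aos site and one at Krn that holds the homeodomain core. The intronic pnt peak of signal 52.6, not printed, holds both. All are given on the plus strand of release 6 (dm6), read from the RefSeq release 6 genome, although each of these genes is transcribed from the minus strand. The first 3 are whole peaks, and the last 2 are 151 bp centred on the summit. Capitals mark the letters GAGAGAAA at aos and pnt, which were picked after the member sequences had been read, and the homeodomain core TAATTA at Krn.
spi, 195 bp upstream of an inner start, chr2L:19575664-19575852: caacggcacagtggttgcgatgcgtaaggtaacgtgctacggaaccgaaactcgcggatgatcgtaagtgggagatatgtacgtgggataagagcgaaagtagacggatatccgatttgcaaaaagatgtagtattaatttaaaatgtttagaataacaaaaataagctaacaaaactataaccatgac
Krn, upstream flank, chr3L:17658529-17658666: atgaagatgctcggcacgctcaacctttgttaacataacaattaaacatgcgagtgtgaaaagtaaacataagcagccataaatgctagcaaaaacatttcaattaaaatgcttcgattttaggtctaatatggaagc
aos, intron, chr3L:16480475-16480660: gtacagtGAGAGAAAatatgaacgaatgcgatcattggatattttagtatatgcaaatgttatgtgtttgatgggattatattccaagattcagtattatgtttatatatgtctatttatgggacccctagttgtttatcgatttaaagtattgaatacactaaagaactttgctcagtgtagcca
pnt, intron, chr3R:23326397-23326547: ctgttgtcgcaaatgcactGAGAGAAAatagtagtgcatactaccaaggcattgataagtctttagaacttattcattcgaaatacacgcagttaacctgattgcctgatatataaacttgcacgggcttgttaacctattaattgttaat
Krn, intron, chr3L:17652110-17652260: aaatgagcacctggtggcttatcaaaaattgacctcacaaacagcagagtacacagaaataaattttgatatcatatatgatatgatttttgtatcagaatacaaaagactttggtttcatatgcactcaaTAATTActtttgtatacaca

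Among the ligands, spi carried the strongest peak of all 10 genes. The gene encodes Spitz, the main activating ligand, a TGF-alpha-like precursor that has to be cleaved before it is secreted, and spans 9416 bp on 2L from 19567900 to 19577315 on the minus strand, with 3 annotated starts. Its leading peak, the first sequence above, reached 364.8, with 175.1 in replicate 1 and 189.1 in replicate 2. Signals are the authors' own values, with no unit or read depth given here, and each replicate's signal comes from that replicate's own list. The peak ranked 201 of the 3848 in the list, and its summit lay 195 bp upstream of the middle start, 1533 bp inside the gene as counted from the most upstream start. The nearest other gene, msb1l, began 1919 bp away, so this peak has no neighbour's promoter within 500 bp.

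A weaker spi peak lay at the gene's most upstream start, between 2 diverging genes. It covered 2L from 19577217 to 19577546, with its summit 67 bp upstream of spi and 319 bp from the start of msb1l, and its signal was 98.8, with 63.3 in replicate 1 and 40.8 in replicate 2. Both spi peaks were in the thresholded lists of both replicates. The remaining start of spi had a peak only in the conservative list, another series list that the authors deposited. That list was shorter but not a subset of the thresholded one. The peak, from 19572778 to 19573107, had its summit 333 bp from the start and a signal of 105.4, above the weaker thresholded spi peak. Its global irreproducible discovery rate (IDR, an estimate of how likely a peak is to fail to recur between the inputs compared) was 0.000399 in the ranked list behind the conservative list and 0.0221 in the one behind the thresholded list, where the limit was 0.01. Its replicate signals were 62.7 and 34.6, and neither replicate's own thresholded list held it. All 3 starts of spi thus had a summit within 500 bp in one or other series list. The conservative list also held an entry of signal 21.1 whose summit lay 276 bp from the most upstream start and 110 bp from that of msb1l, overlapping the peak already described.

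Krn, which encodes Keren, another precursor ligand of the Spitz kind, had 4 peaks in a gene of only 4719 bp (3L from 17649562 to 17654280, minus strand). The strongest, with the sequence shown above, stood 4307 bp upstream of the start and 3970 bp from that of CG7484, and it lay inside no annotated coding gene. Its signal was 275.9 at rank 345, with 167.3 in replicate 1 and 106.1 in replicate 2. The second, from 17654251 to 17654580, had a signal of 178.0 and a summit 136 bp upstream of the Krn start, with 116.2 in replicate 1 and 59.9 in replicate 2. Krn lies inside Ndfip, which begins at the same base, and CG7484 begins within 500 bp of this summit, so the peak is a promoter peak of all 3 genes. The last 2 lay in the first kilobases of the gene and inside Ndfip as well. The one with its summit 637 bp downstream of the start had a signal of 66.7, with 42.8 in replicate 1 and 26.6 in replicate 2. The one at 2095 bp had a signal of 51.1, with 36.5 in replicate 1 and 19.1 in replicate 2, and the conservative list left it out. The q-value of this weakest Krn peak was above 0.05 (−log10 q of 0.69). Replicate 1's own list held both of these intronic peaks and replicate 2's held neither.

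The gene vn, which encodes Vein, a secreted neuregulin-like ligand that needs no cleavage, had a single peak far from its start. The gene spans 32327 bp of 3L (5813338 to 5845664, minus strand), and the peak from 5819310 to 5819639 had its summit in an intron 26189 bp downstream of the only annotated start and 6382 bp from the start of mad2. Its signal of 85.1 was the lowest among the strongest peaks of the 7 genes in the series' list. Replicate 1 gave 38.8 and replicate 2 gave 51.5, and both replicates' lists held it. In replicate 2 the value was above every S peak, of which the highest was 37.1. No summit lay near the vn start in any of the 4 thresholded lists.

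The pair of genes that prepare the ligand precursors differed in the lists. S encodes Star, which carries the precursor out of the endoplasmic reticulum, and spans 28142 bp of 2L (1049674 to 1077815, minus strand). Its 4 peaks lay in the first 7 kb of the gene or just outside its start. The intronic peak from 1072212 to 1072541 had a signal of 104.5, with 72.6 in replicate 1 and 28.6 in replicate 2. Another intronic peak, with its summit 1861 bp downstream of the start, had a signal of 81.2, with 45.4 in replicate 1 and 32.9 in replicate 2. These were in the thresholded list of replicate 1 only. The intronic peak at 6662 bp had a signal of 65.4, with 31.3 in replicate 1 and 37.1 in replicate 2, and was in the list of replicate 2 only.

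The own-TSS peak of S covered the gap between S and ast. Its summit lay 103 bp upstream of S and 30 bp from the start of ast, and its signal was 70.4, with 32.9 in replicate 1 and 31.1 in replicate 2. It was the sole member peak that neither replicate's thresholded list held. No peak of S was in the lists of both replicates. S was the only covered member of which that was true.

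The gene rho encodes Rhomboid, the membrane protease that cleaves the ligand precursors, and it carried no thresholded peak. It spans 5134 bp of 3L (1463811 to 1468944, plus strand), inside Ptp61F. The ranked list behind the thresholded list, which holds 128965 entries with no limit applied, had 14 entries in its window. The strongest of them had a signal of 46.0 at rank 4802, an exonic summit 1858 bp downstream of the start, a q-value of 0.372 and a global IDR of 0.0381. In the replicates' own ranked lists the highest entry of rho was 27.4 in replicate 1 and 19.5 in replicate 2. The nearest thresholded summit to the rho start was 15697 bp away, with a signal of 66.0.

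Egfr itself, the receptor gene, carried no thresholded peak either, although it is one of the longest members. It spans 37558 bp of 2R (21522420 to 21559977, plus strand) with 2 starts and holds the nested genes CG30286, CG30283, CG30287 and CG33226. Its window had 53 entries in the ranked list, with a median signal of 20.6. The strongest had a signal of 43.6 at rank 5372, a q-value of 0.484 and a global IDR of 0.0794, and its summit lay 9 bp from the inner start. The highest entry of Egfr was 30.3 in replicate 1 and 21.8 in replicate 2. The nearest thresholded summit to an Egfr start lay 19123 bp from the outer one, with a signal of 72.0.

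The effector gene pnt had the most peaks. It encodes the ETS factors of the Pointed family, which activate targets of the pathway, and spans 55937 bp of 3R (23290231 to 23346167, minus strand) with 3 starts. Of its 6 peaks, 4 were intronic and none lay within 500 bp of a start. A pair of intronic peaks stood 641 bp apart, 10447 and 11088 bp downstream of the outermost start. The stronger of the pair had a signal of 155.3, with 100.5 in replicate 1 and 61.6 in replicate 2, and the other a signal of 117.5, with 70.8 in replicate 1 and 41.3 in replicate 2. The intronic site shown in the sequences above belonged to the peak from 23326307 to 23326636, 12157 bp upstream of the middle start, which had a signal of 103.2, with 55.7 in replicate 1 and 48.4 in replicate 2. These 3 peaks were in the thresholded lists of both replicates.

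The other pnt peaks were weaker or less regular. The intronic peak from 23332587 to 23332916 had a signal of 52.6 and 49.3 in replicate 1, and replicate 2 had no entry there even in its ranked list. The q-value of this peak was above 0.05 (−log10 q of 0.76). The flanking peak from 23346913 to 23347242 had its summit 911 bp upstream of the outermost start and a signal of 87.5, with 39.5 in replicate 1 and 49.6 in replicate 2. A further entry, with a signal of 7.0, had its summit 201 bp from that one and overlapped it. The strongest overlapping replicate entries were the same for both, so both take the same replicate signals. Replicate 1's thresholded list also held a separate entry of signal 3.5 there. The q-value of the 7.0 entry was also above 0.05 (−log10 q of 0.03), and without this entry the genes had 21 peaks. The next coding gene beyond both, PolE1, began 1050 bp from the summit of the stronger.

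Among the inhibitors, aos carried peaks of high signal at its start and in an intron. It encodes Argos, a secreted protein that captures Spitz, and spans 13265 bp of 3L (16470386 to 16483650, minus strand), inside CG33158. The intronic peak, the third sequence above, lay 3079 bp downstream of the start and had a signal of 261.2 at rank 390, with 166.3 in replicate 1 and 94.0 in replicate 2. The own-TSS peak from 16483839 to 16484168 had its summit 354 bp upstream of the start and a signal of 129.5, with 71.8 in replicate 1 and 49.8 in replicate 2. Both were in the lists of both replicates. No other coding gene began within 11264 bp of the summit at the start, so this was an own-TSS peak with no neighbour's promoter in reach.

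The gene sty encodes Sprouty, an intracellular inhibitor of receptor tyrosine kinase signalling, and its 3 peaks were all intronic. It spans 23783 bp of 3L (3401153 to 3424935, minus strand) with an outer and an inner start. The strongest peak, from 3418810 to 3419139, lay 1014 bp upstream of the inner start, at a signal of 165.5; replicate 1 gave 90.0 and replicate 2 gave 78.9, and both lists held it. The peak at 512 bp upstream of the same start missed the own-TSS limit by a few bases. It had a signal of 66.2, with 31.9 in replicate 1 and 39.9 in replicate 2, and was in the list of replicate 2 only. The peak from 3420725 to 3421054 had a signal of 90.2 and the least even replicates among the member peaks with a value in both, with 67.1 in replicate 1 and 22.5 in replicate 2, a ratio of 2.99. The conservative list added an intronic sty peak of signal 53.9 from 3406436 to 3406765.

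The gene kek1 encodes Kekkon-1, a transmembrane protein with leucine-rich repeats that binds the receptor and inhibits it, and it was the member farthest from any peak. It spans 5788 bp of 2L (12817000 to 12822787, minus strand) with no other coding gene within 5 kb. Its strongest entry among 20 in the ranked list had a signal of 33.0 at rank 11954 and a q-value of 0.923. The highest entry was 20.9 in replicate 1 and 18.1 in replicate 2. The nearest thresholded summit lay 58081 bp from its start, with a signal of 48.8.

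**Figure D2:**
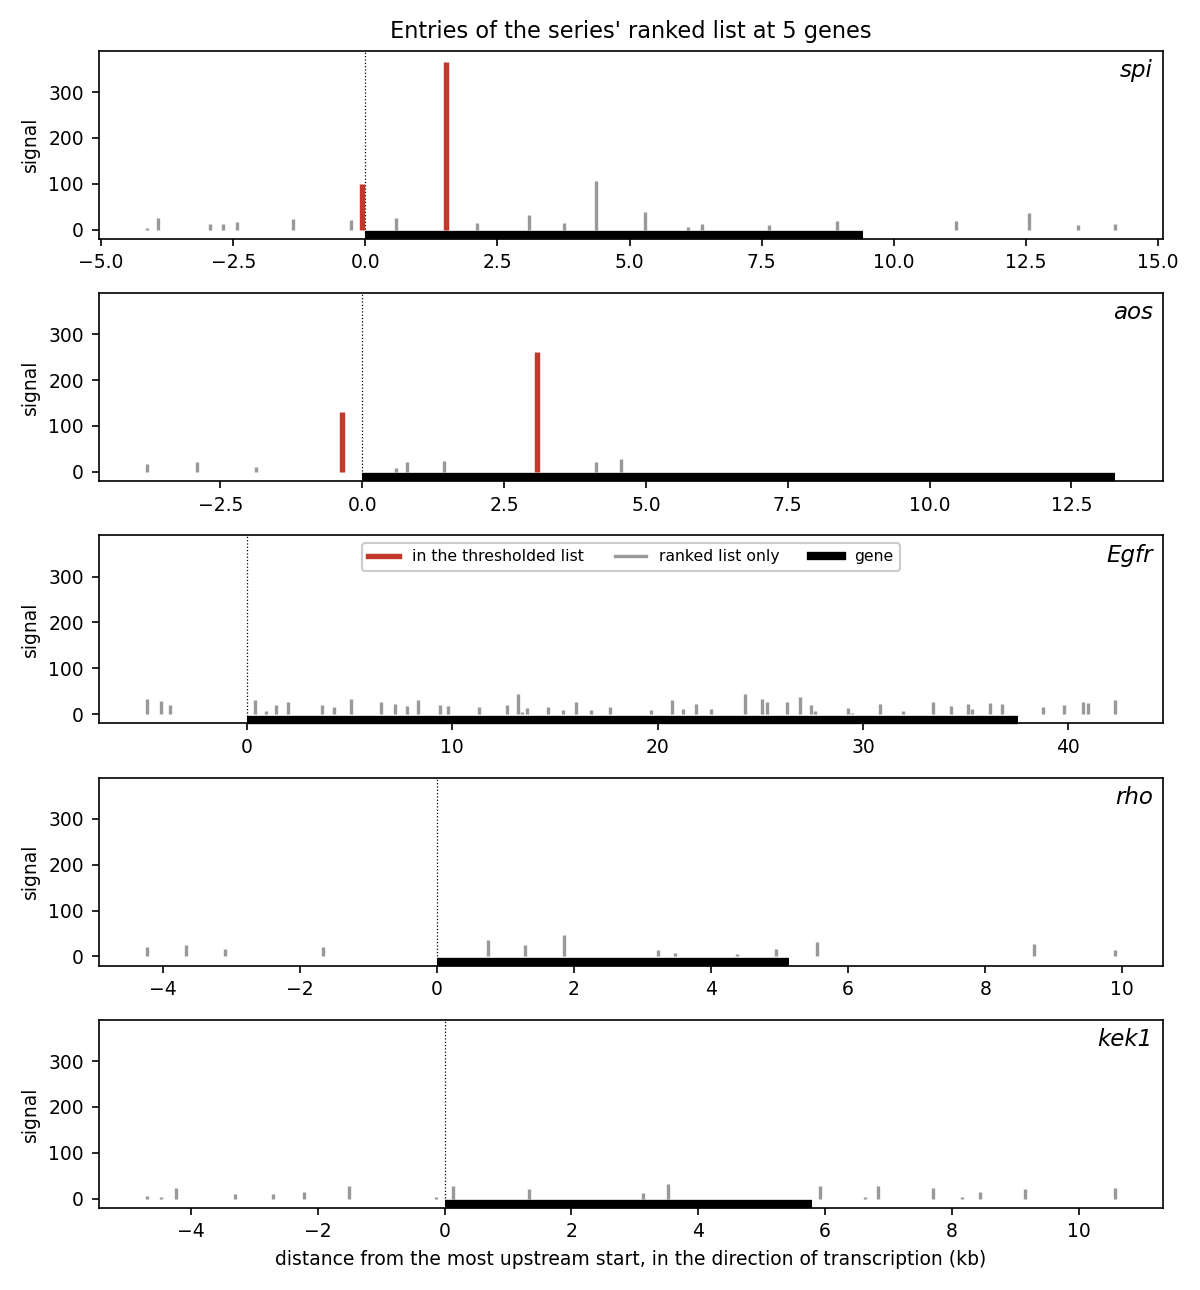
Entries of the series' ranked list inside and within 5 kb of spi, aos, Egfr, rho and kek1, by distance from the most upstream start (kb, in the direction of transcription) and deposited signal. Red lines are in the thresholded list, grey lines in the ranked list only, and the black bar is the gene. The 98.8 and 364.8 peaks of spi and the 129.5 and 261.2 peaks of aos stand above every entry of Egfr (at most 43.6), rho (46.0) and kek1 (33.0), while the grey 105.4 entry of spi missed the IDR limit.

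An entry in the ranked list was no mark of the members, since all 10 had one, against 96.2% of all genes. The ranked list held 1.14 entries per kb in the member windows, against 0.920 per kb over the arms. In the thresholded list the density was 0.0696 peaks per kb in the member windows, against 0.0278 per kb over the arms. The windows held genes with 5 kb on each side and the arms all sequence. These densities therefore do not set the members against other genes. The strongest entries that missed the limit at the covered members had signals of 105.4 at spi, 53.9 at sty, 46.3 at S, 44.0 at vn, 42.3 at Krn, 36.7 at pnt and 28.7 at aos. Those of Egfr, rho and kek1, at 33.0 to 46.0, lay within that range. The lists therefore do not show whether Egfr, rho and kek1 lacked Aristaless or carried it at a level that was not detectable.

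The signals of the 22 member peaks were spread much as those of the series. Their median was 94.5 with quartiles of 67.6 and 148.9, against a median of 90.2 with quartiles of 63.0 and 150.6 for all 3822 peaks on the arms. Of 21 peaks, counting the overlapping pnt entries once, 6 were above the upper quartile of all signals, led by the spi and Krn peaks. The strongest peak per covered gene ran from 85.1 at vn to 364.8 at spi, with a median of 165.5. In order these were spi, Krn (275.9), aos (261.2), sty (165.5), pnt (155.3), S (104.5) and vn. Replicate 1 set pnt (100.5) above sty (90.0), and replicate 2 set vn (51.5) above S (28.6 at its leading peak), so those neighbours in the order changed places. Krn stood above aos in both replicates, by a small margin in replicate 1 (167.3 and 166.3). By class, own-TSS peaks had a median signal of 129.5 (range 70.4 to 364.8), intronic peaks 87.7 (51.1 to 261.2) and flanking peaks 87.5 (7.0 to 275.9).

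**Figure D3:**
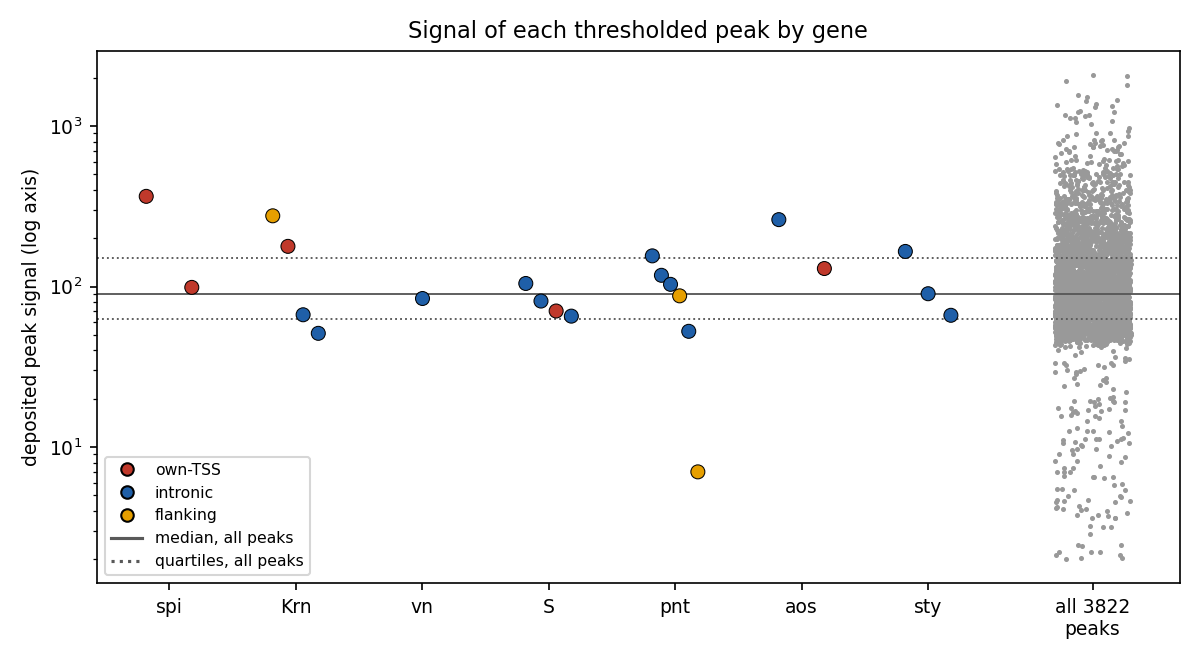
Deposited signal (log axis) of each thresholded peak at the 7 covered genes, coloured by class, beside all 3822 peaks on the arms in grey. The solid line is the median of all peaks (90.2) and the dotted lines are their quartiles (63.0 and 150.6). The member peaks spread over the range of the series, with spi at the top at 364.8 and 1 flanking pnt entry at 7.0.

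The replicates agreed on the leading peak of each covered gene except S. Of the 22 peaks, 13 were in the thresholded lists of both replicates (59.1%), against 47.7% of all peaks. A further 6 were in that of replicate 1 only (27.3%, against 25.3%), 2 in that of replicate 2 only (9.09%, against 5.86%) and 1 in neither (4.55%, against 21.2%). By class, 4 of 5 own-TSS, 6 of 14 intronic and 3 of 3 flanking peaks were in both lists. Of the flanking ones, 1 is the 7.0 pnt entry that shares its replicate signals with a stronger peak. Shares of all peaks by class are not given, so these small counts do not rank the classes. Replicate 1 gave the higher signal at 15 of 21 member peaks with both values (71.4%), against 87.4% of all peaks. The ratio of replicate 1 to replicate 2 had a median of 1.44 at member peaks, against 1.51 at all peaks. Without the 7.0 pnt entry these were 15 of 20 member peaks and a median of 1.5. The leading spi peak (ratio 0.926) and the vn peak (0.753) were among those higher in replicate 2. Since the scaling between replicates is unknown, a ratio near 1 does not mean equal occupancy. Without the 7.0 pnt entry, replicate summits lay a median of 9 bp from the series summit in replicate 1 and 7 bp in replicate 2.

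**Figure D4:**
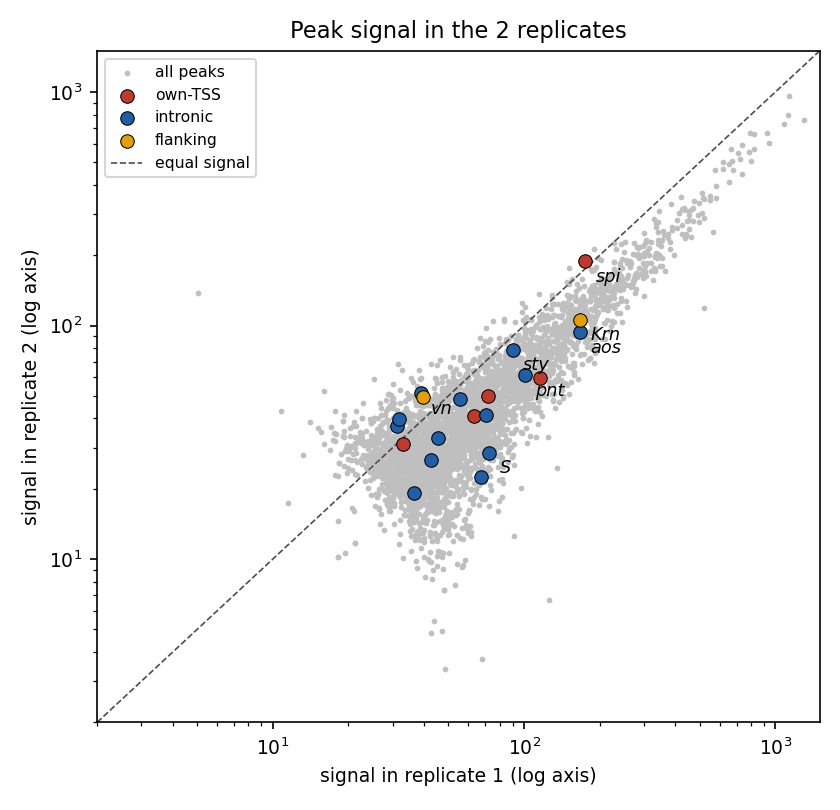
Signal of replicate 1 against signal of replicate 2 (log axes), from each replicate's own ranked list, for member peaks coloured by class and for all peaks in grey. The dashed line marks equal signal, names stand beside the leading peak of each gene, and the pnt peak with no replicate 2 entry and the overlapped 7.0 pnt entry are left out. Most points lie under the line, and the leading peaks of spi and vn lie above it.

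Each deposited thresholded list gave the same 7 genes. The conservative list covered 70.0% of the members, against 44.1% of all genes. The list of replicate 1 likewise covered 7 of 10, against 39.8% of all genes, and that of replicate 2 covered 7 of 10, against 32.1%. The number of peaks differed more than the number of genes: the member windows held 22 in the conservative list, 21 in that of replicate 1 and 14 in that of replicate 2. These counts include weak entries that overlap or adjoin a stronger peak. They were an entry of 21.1 at spi in the conservative list, and entries of 3.9 at spi, 7.7 at Krn and 3.5 at pnt in that of replicate 1.

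Beyond the members, 24 other genes of the pathway were examined by the same rule, from grk and the further rhomboid protease gene ru through the cascade to its nuclear factors. That list, too, was chosen with earlier results of these data known. A peak stood at 17 of them (70.8%), against 46.2% of all genes, with 48 summits in all and a median strongest signal of 196.8. Of those of at least 10 kb, 8 of 9 carried one (88.9%), against 60.7% of all genes of that length. Of the shorter ones, 9 of 15 did (60.0%), against 43.8%. Counting summits inside the gene only, 10 of the 24 carried one (41.7%), against 10.6% of all genes. Among those of at least 10 kb it was 7 of 9 (77.8%), against 37.6%. The 17 were ru, drk, Raf, Dsor1, rl, ksr, cnk, dos, Shc, RasGAP1, aop, edl, cic, gro, Mkp3, Spred and ed. The strongest was at Shc, an adaptor gene, with a signal of 1230.0 at rank 15 (668.2 in replicate 1, 569.4 in replicate 2), 124 bp from the Shc start and also within 500 bp of the start of Atat. The co-repressor gene gro followed with 342.5, at an own start. Raf, which encodes the first kinase of the cascade, had 9 summits, led by an intronic one of 303.4. The strongest peak at the scaffold gene cnk (285.1) lay at the promoter of l(2)k01209, and that at RasGAP1 (253.1) lay in flanking sequence. No peak stood at grk, which encodes the germline ligand Gurken, or at Sos and Ras85D, which start the cascade.

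The strongest peak lay at a neighbour's promoter only, and not at an own start, at 0 of the 7 covered members and at 5 of the 17 covered genes of the wider list (Dsor1, ksr, cnk, dos and Spred), a difference that was not tested. An own-TSS peak was found at 4 of the 24 genes (16.7%), below the 40.0% of the members and near the 18.7% of all genes. All 17 strongest peaks were in the thresholded lists of both replicates.

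How many member peaks held the core that paired-class homeodomains are known to bind depended on the window. Within 100 bp of the summit the core TAATTA, searched on both strands, occurred in 2 of 22 member peaks (9.09%), against 17.7% of all peaks. Within 250 bp it occurred in 9 (40.9%), against 33.0%, so the direction turned, and within 50 bp in 0, against 9.84%. The 2 peaks of the 100 bp window were the weakest Krn peak (51.1), shown above, and the intronic pnt peak of signal 52.6. Replicate 2's own list and the conservative list left out both, and both had a q-value above 0.05. The leading peaks of the 7 genes did not hold it within 100 bp. In the same window the DRE letters TATCGATA and the Motif 1 letters GGTCACACT, both known from core promoters, were in 0 of the 22, against 4.37% and 1.41% of all peaks. The letters GAGAGAG, bound by GAGA factor, were in 2 (9.09%), the 66.2 peak of sty and the 87.5 peak of pnt, against 3.38% of all peaks. The ETS core CCGGAA, the kind of site that Pointed itself binds, was also in 2 (9.09%), the 70.4 peak of S and the 7.0 entry of pnt, against 4.24%. GC content around the member summits had a median of 35.1%, against 34.8% for all peaks.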

How the data were processed

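The authors deposited 8 peak lists on dm6, per the labels. Each replicate had a thresholded and a ranked list, and the series had thresholded, conservative and 2 ranked lists. Their values are an enrichment signal, a −log10 q-value, a score capped at 1000 and, in ranked lists, a −log10 IDR, as deposited by the authors. Aligner, peak caller, filters and depth were not given in the sources used here; no interval is therefore given for a signal. The series' thresholded list held 3848 peaks (3822 on the arms), of which 950 had a q above 0.05. So did 3 of the 22 member peaks.

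From the deposited values, every thresholded peak had a global IDR of at most 0.01 in one ranked list and every conservative peak in the other. Replicate signals were taken from each replicate's own ranked list, as the strongest entry overlapping by at least 1 bp, and not from columns that carry no replicate name. Genes and starts came from Ensembl release 115 (BDGP6.54), whose coordinates are those of release 6. Classes were given in the order own-TSS, neighbouring promoter, intronic, exonic, flanking. No test was run, since there is 1 group. Alternatives were other lists, windows, distances and q limits. Counting was tested on simulated summits.

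The members, the list of 24 other genes and the motifs were chosen with earlier results of these data known. The text names all members, any neighbour whose start lies by a member peak, and of the 24 all 17 with a peak, the 5 strongest with values, and 3 without a peak. The nearest neighbours mad2 and PolE1 and the genes around or inside a member are named for position. Python 3.11.15 with numpy 2.4.6, pandas 2.3.3, pysam 0.24.0 and matplotlib 3.10.9 was used.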

Additional observations from a re-analysis of the deposited data

How the results depend on the processing

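The count of 7 covered genes was the same with the conservative list, with either replicate's list, with q of at most 0.05, with whole intervals and with windows from 0 to 10 kb, and was 6 when each summit went to its nearest start only. The share of all genes was 46.2% at 5 kb and 10.6% inside the gene only, so an equal count stands beside unequal shares. Shares of all genes are not given for the q limit, whole intervals, 2 kb, 10 kb or the nearest start. The 22 peaks at the members became 14 without replicate 1, 21 without replicate 2 and 19 with q of at most 0.05. Under the other alternatives they numbered between 15 (inside the gene only) and 28 (10 kb on each side). Counting peaks inside the gene only left 10 of the other pathway genes covered. With starts taken out to 1 kb there were 8 own-TSS, 1 neighbouring-promoter and 1 flanking peak. The 4 members with an own-TSS peak became 3 without replicate 1, without replicate 2 and at a distance of 250 bp. They became 5 with whole intervals and 6 at 1 kb, and shares of all genes are not given for these settings. The core TAATTA was in 9 member peaks within 250 bp of the summit (40.9%, against 33.0% of all peaks, the opposite direction to 100 bp) and in 0 within 50 bp (against 9.84%). Alternatives chosen after seeing the data gave GAGAGAG in 5 member peaks at 250 bp (22.7%, against 13.1% of all peaks). At 50 bp they gave it in 0, against 0.916%. CCGGAA was in 4 at 250 bp (18.2%, against 11.1%) and in 1 at 50 bp (4.55%, against 2.04%). At 250 bp the windows of the 2 overlapping pnt entries share bases, so a site there can count for both. They gave 1 member with at least 4 summits without replicate 1, 2 without replicate 2 and 4 in the conservative list. Removing the overlapped pnt entry, also chosen after seeing the data, left 12 of 21 peaks in both lists. No paired analysis was possible because there is 1 group. Depth is unknown, and no control library was analysed.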

Other observations

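The letters GAGAGAAA, picked after the member sequences had been read, were within 100 bp of the summit on either strand in 3 of 22 member peaks (13.6%), the intronic peak of aos and 2 intronic peaks of pnt. They were in 3.30% of all 3822 peaks and in 1.41% of equal windows centred 1 kb to the left of all peaks. Because the letters were picked from the member sequences, the member share was set by that choice. Its distance from the other shares is therefore no result about the members. With a T before them, as in both printed sites, they were in 2 member peaks (9.09%), 1.65% of all peaks and 0.262% of the windows. The same limit holds for these shares. GAGAGAAA and the GAGA letters GAGAGAG share bases where a longer repeat holds both. A median of 19.2% of the bases around the member summits were soft-masked as repeats in the genome sequence, against 20.4% for all peaks.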
